A study of Danio rerio with 8 samples.

Results

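Motile cilia and the transport system that builds them were represented by 69 genes measured in the distal trunk of zebrafish larvae. These were the identifiers of the deposited table whose symbol, in capitals or lower case, starts with cfap, dnah, dnai, dnal, tekt or rsph, or with ift and a number, and whose mean over the 8 samples was 10 or more. Of 24345 identifiers in all, 70 had such a symbol, and 1 of them, cfap97d2, stayed under the minimum with a mean of 7.07 normalized counts. The lowest member, rsph14, had a mean of 177, so no member lay near the minimum. The members were 29 cfap, 10 dnah, 4 dnai, 4 dnal, 5 rsph, 4 tekt and 13 ift genes. The rule itself uses symbols and the mean over all samples, not the ratio of BkF to Control, but it was set with earlier results of these data known.

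The larvae were wild-type fish of the Tropical 5D line without a mutation or transgene named in the labels. Their water held 12 µM of the combustion product benzo[k]fluoranthene, below BkF, or 1% DMSO alone, below Control, from 6 to 8 hours post fertilization (hpf) onward, and the trunk was taken at 48, 60, 72 and 96 hpf. Whether the BkF wells held the same share of DMSO is not stated in the labels. Each of the 8 samples, 1 per treatment and time, is the authors' mean of 4 biological replicates of 50 animals, given as DESeq2 normalized counts. The series title names fin duplication by benzofluoranthenes and the aryl hydrocarbon receptor, the ligand-activated factor through which such compounds act. With 1 value per condition no replicate error can be given here. The error printed after an average log2 ratio of BkF to Control is the SD of that ratio over the 4 times.

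A motile cilium is a membrane-covered rod of doublet microtubules around a central pair, the axoneme. Outer and inner arms of axonemal dynein slide the doublets past each other, radial spokes relay signals from the central pair to the arms, and tektins run along the doublet wall. Intraflagellar transport (IFT) carries these parts to the tip in trains of IFT-B and IFT-A proteins, and it also serves the immotile primary cilium that most cells bear. In zebrafish larvae motile cilia line the pronephric tubules and the central canal of the spinal cord, and hair cells of the lateral line carry a kinocilium. The roles given below are known mainly from Chlamydomonas, mouse and human. No protein or promoter sequence of these genes was used here.

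Most of the 69 genes were somewhat higher in BkF trunks at 48, 60 and 72 hpf, mostly by less than 2-fold, and the difference was small at 96 hpf. Over the 4 times 36 members were higher and 2 lower in BkF (limma with time as a block, Benjamini-Hochberg adjusted p under 0.05 over 21950 genes). Among all genes tested 16.5% were higher and 17.4% lower, so the share of members higher, 52.2%, lay above the background and the share lower below it. The p-values weigh the average ratio against how far it moved between times, not against the spread between animals. In bulk tissue more cells of a type and more RNA per cell cannot be told apart. The count changed with the time left out. Without the 48 hpf samples 26 members were higher (15.6% of all genes), and without the 60 hpf samples 9 (7.58%). Without the 72 hpf samples it was 11 (8.37%), and without the 96 hpf samples 46 (15.2%). The median of the members' average log2 ratios was 0.33 with all samples. In these 4 fits, in order of the time left out, it was 0.36, 0.28, 0.29 and 0.41. Each of these fits had the same number of samples, and why their counts differed was not tested. The calls of 7 of the 36 held whichever time was left out, those of DNAH2, DNAI1, RSPH4A, cfap251, CFAP298, cfap65 and IFT88.

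The median log2 ratio of the members was 0.30, 0.47, 0.46 and 0.049 at 48, 60, 72 and 96 hpf, against 0.00068, 0.0058, 0.00092 and -0.013 for all genes tested. At 48 hpf 62 of the 69 ratios were above 0, at 60 hpf 65 and at 72 hpf 62, where 50.1%, 50.6% and 50.1% of all genes were. At 96 hpf 43 were above 0, against 48.8% of all genes. With all sample totals set equal 57 were, but that scale moved all genes toward BkF. Above the median of all genes at 96 hpf lay 45 members on either scale, a count that a common factor per sample can hardly alter. Few members passed 2-fold at any time. Higher by that much were cfap144 at 60 hpf, with a log2 ratio of 1.11, and DNAH6 (1.76), cfap251 (1.17) and cfap99 (1.08) at 72 hpf. At 48 and 96 hpf 0 members were. Of all genes 3.64%, 4.2%, 4.88% and 5.29% were 2-fold or more higher at 48, 60, 72 and 96 hpf. As lower by 2-fold or more, 0 members were found at any time, against 4.12%, 5.0%, 6.27% and 8.7% of all genes, TEKT3 at 96 hpf coming closest with -0.99. In 13 members all 4 BkF values lay above all 4 Control values and in 1 all lay below, and among all genes 14.6% and 13.8% did, so the first share is close to the background.

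**Figure D1:**
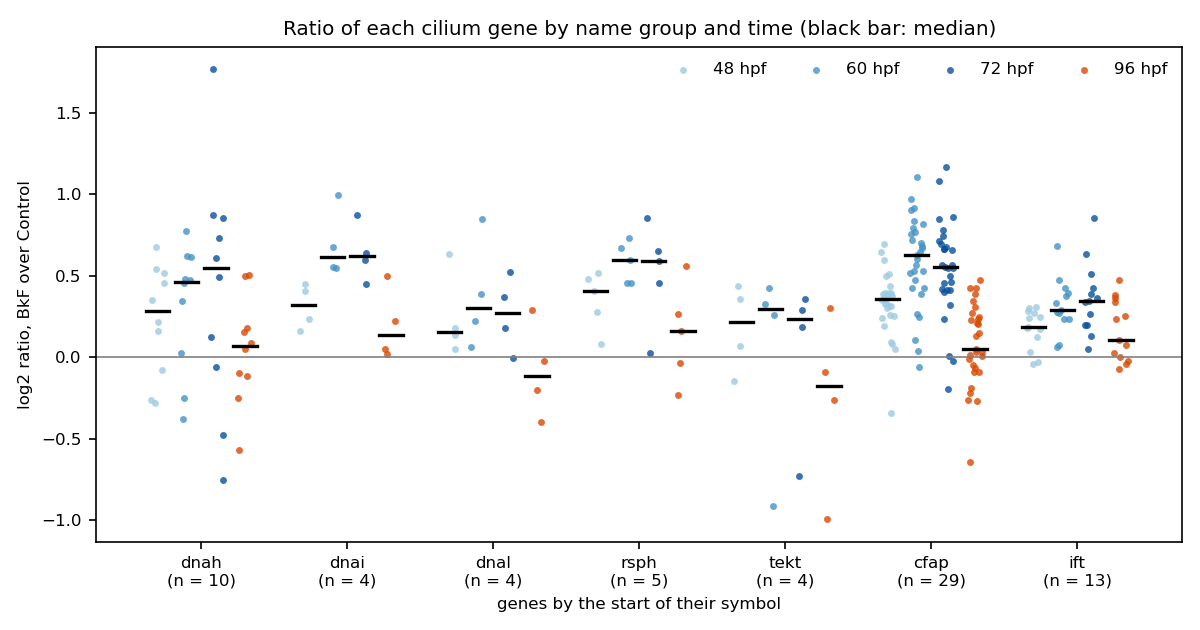
The log2 ratio of BkF to Control (vertical axis) is plotted for each of the 69 genes, grouped by the start of their symbol and coloured by time, with a black bar at each median. In all 7 groups the median is above 0 at 48, 60 and 72 hpf and lower at 96 hpf, where that of the dnal and tekt genes is below 0.

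The dnah genes encode the heavy chains, the motor subunits of the arms. Of 10 members 6 were higher and 1 lower. For this and the group counts below, the shares among all genes tested were 16.5% higher and 17.4% lower. DNAH5 (ENSDARG00000087373), an outer arm heavy chain gene, stood at 11126, 9669, 7395 and 5976 normalized counts in BkF at the 4 times, against 6978, 5652, 4454 and 5633 in Control. The BkF samples lay above the Control sample of the same time throughout, and the pair nearly met at 96 hpf. The average log2 ratio was 0.57 ± 0.32 (adjusted p = 0.0164), and the call ended on leaving out 48 hpf (0.53), 60 hpf (0.50) or 72 hpf (0.51). DNAH11, another outer arm heavy chain gene, had ratios of 0.46, 0.62, 0.87 and -0.098 and did not pass (0.46 ± 0.41, adjusted p = 0.0601). dnah5l, named as DNAH5-like, had -0.092 ± 0.11 and did not pass either.

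Outer arm heavy chain genes thus did not all go one way. dnah9l (ENSDARG00000062630), named as DNAH9-like, was lower in BkF. It stood at 761, 777, 731 and 699.9 in BkF, against 915, 1013, 1016 and 1037 in Control. All 4 BkF values were below all 4 Control values, and the ratio was -0.27, -0.38, -0.47 and -0.57 at 48, 60, 72 and 96 hpf. Its average was -0.42 ± 0.13 (adjusted p = 0.00811), a call that held whichever time was left out.

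Inner arm heavy chain genes rose in 5 of 6 members. DNAH2 (ENSDARG00000087352), which encodes a chain of the two-headed inner arm, stood at 4195, 3442, 3637 and 3419 in BkF, against 2932, 2251, 2016 and 2411 in Control. Here the lowest BkF value was above the highest Control value, and the ratio at 96 hpf, 0.50, was close to that at 48 hpf, 0.52. The average was 0.62 ± 0.16 (adjusted p = 0.0023). DNAH6 (ENSDARG00000000606), a single-headed inner arm chain gene, had the highest average of the 69, 0.82 ± 0.63 (adjusted p = 0.0365). Its values were 3973, 3419, 2950.1 and 2374 in BkF, against 2735, 2457, 868 and 1684 in Control, and the 72 hpf Control sample alone was far below its neighbours in time. Without the 72 hpf samples the average of DNAH6 was 0.50, and its call ended without the 48 hpf (0.91) or the 60 hpf samples (0.93). DNAH12 rose by 0.40 ± 0.18, DNAH10 by 0.31 ± 0.21 and DNAH7 by 0.20 ± 0.10. The call of DNAH7 ended whichever time was left out, at 0.21, 0.15, 0.22 and 0.21 without the 48, 60, 72 and 96 hpf samples. DNAH3, the remaining inner arm gene, had ratios below 0 at all 4 times (-0.35 ± 0.28) and did not pass, but did as lower without the 96 hpf samples.

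Intermediate chains sit at the base of the arms and tie them to the doublet. Of 4 dnai genes 3 were higher. DNAI1 (ENSDARG00000038788), an outer arm intermediate chain gene whose loss causes primary ciliary dyskinesia in humans, stood at 3029, 2645, 2342 and 1887 in BkF, against 2218, 1325, 1279 and 1338 in Control. Its ratio was 0.45, 1.00, 0.87 and 0.50 at the 4 times, at 60 hpf just under 2-fold. The average was 0.70 ± 0.27 (adjusted p = 0.00531). The outer arm gene dnai2b rose by 0.41 ± 0.21 and DNAI4, which encodes an inner arm intermediate chain, by 0.42 ± 0.29, with a ratio of 0.019 at 96 hpf. DNAI7 had 0.30 ± 0.23 and did not pass.

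Light chains are the small subunits of the same complexes. Only 1 of the 4 dnal genes passed, the DNAL4 entry ENSDARG00000088841, at 0.30 ± 0.096. The other entry of that symbol, ENSDARG00000031116, had 0.088 ± 0.087, and reads of these copies may be shared between them. DNAL1, an outer arm light chain gene, stood at 857, 747, 696 and 592 in BkF, against 828, 641, 698 and 780.4 in Control, with the widest gap at 96 hpf, where Control was higher. DNALI1, which encodes an inner arm light intermediate chain, had ratios of 0.63, 0.84, 0.52 and -0.20, with the sign at 96 hpf opposite to the others. Neither passed (-0.033 ± 0.26 and 0.45 ± 0.46).

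Radial spoke genes were all above 0 at 48, 60 and 72 hpf, and 2 of 5 passed, both higher. RSPH4A (ENSDARG00000067606), a gene of the spoke head, stood at 1740.4, 1504, 1454 and 1341 in BkF, against 1249, 1095, 803 and 908 in Control. No BkF value reached down to the Control range, and the ratio at 96 hpf, 0.56, was the highest of the 69 at that time. Its average was 0.59 ± 0.18 (adjusted p = 0.00423). RSPH9, another spoke head gene, rose by 0.51 ± 0.18. RSPH3 of the spoke stalk (0.32 ± 0.27), rsph10b (0.24 ± 0.39) and rsph14 (0.33 ± 0.31) did not pass.

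Of 4 tektin genes 1 was higher and 1 lower, where 16.5% and 17.4% of all genes were. TEKT4 rose by 0.38 ± 0.064, while TEKT2 (0.18 ± 0.30) and tektl1 (0.11 ± 0.15) did not pass. TEKT3 (ENSDARG00000045038) was lower in BkF and had a time course of its own. It stood at 16, 265, 453 and 349.5 in BkF, against 17.8, 501, 750.4 and 697 in Control. It was the only member lowest at 48 hpf in both treatments, and from 60 hpf on the BkF value was well under the Control value. The average ratio was -0.70 ± 0.38 (adjusted p = 0.0222), and the call ended on leaving out 60 hpf (-0.62), 72 hpf (-0.68) or 96 hpf (-0.60). The summed level of hair cell genes, given further on, was also low at 48 hpf and lower in BkF, and their part in the TEKT3 result was not tested.

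**Figure D2:**
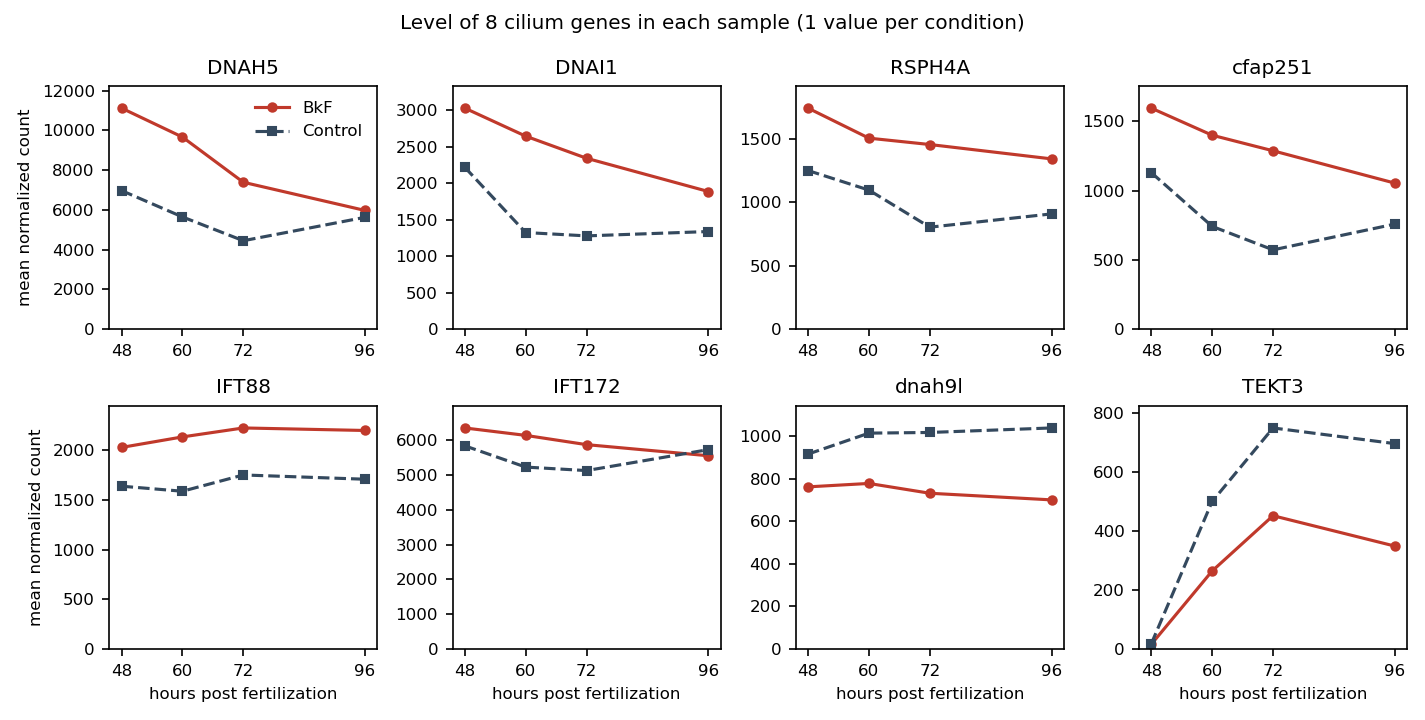
Mean normalized counts of 8 genes (vertical axes, each from 0) are plotted against hours post fertilization, BkF as circles with solid lines and Control as squares with dashed lines, 1 value per condition. DNAH5 comes close to its Control value at 96 hpf and IFT172 crosses it, RSPH4A and IFT88 stay apart, and dnah9l and TEKT3 run lower in BkF.

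The cfap genes encode cilium and flagellum associated proteins of many kinds, and 16 of 29 were higher and 0 lower in BkF. At 48, 60 and 72 hpf their median ratio was 0.36, 0.62 and 0.55, and at 96 hpf it was 0.048. cfap251 (ENSDARG00000059855), which encodes a protein of the calmodulin complex at the spoke base, stood at 1594, 1399, 1287 and 1054 in BkF, against 1129, 742, 572 and 758 in Control. The average was 0.76 ± 0.34 (adjusted p = 0.00787), the largest of the cfap genes. CFAP91, a gene of the same complex, rose by 0.31 ± 0.20. CFAP298, which is needed to assemble dynein arms, rose by 0.53 ± 0.15, with 2262, 2079, 2077 and 2052 in BkF and 1741, 1349, 1297 and 1529 in Control. Its BkF values were nearly level from 60 hpf on, and none overlapped the Control values.

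Next in size among the cfap genes that passed were cfap99 (0.67 ± 0.34), CFAP299 (0.65 ± 0.32), cfap263 (0.55 ± 0.27) and cfap65 (0.55 ± 0.24). Adjusted p was 0.0115, 0.013, 0.0157 and 0.00862 for these 4 genes (limma). Without the 60 hpf samples the calls of cfap99 (0.62), CFAP299 (0.55) and cfap263 (0.51) ended, and without the 72 hpf samples those of CFAP299 (0.58) and cfap263 (0.46). CFAP45, whose protein lies inside the doublet, rose by 0.39 ± 0.30, and cfap74, a central apparatus gene, by 0.38 ± 0.27. cfap144 had ratios of 0.69, 1.11, 0.70 and -0.069, standing at 623, 497, 364 and 239.7 in BkF and 385, 230.3, 224 and 252 in Control. Its average of 0.61 ± 0.49 did not pass (adjusted p = 0.0528). cfap221, which encodes a central apparatus protein, had 0.33, 0.39, 0.66 and -0.27 at the 4 times (0.28 ± 0.39) and among the 4 omissions of a time passed only without 96 hpf (0.46). cfap92 had -0.34, 0.039, -0.20 and -0.64 at the 4 times, below 0 at all but 60 hpf (-0.29 ± 0.28), and did not pass. Other cfap members ran from 0.16 (cfap36) to 0.49 (CFAP57).

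Of the 13 IFT genes, which serve motile and primary cilia alike, 7 were higher and 0 lower, all 7 of them IFT-B genes. Their median ratio was 0.19, 0.29, 0.34 and 0.11 at 48, 60, 72 and 96 hpf, and the median change at 96 hpf from the mean of the earlier times was -0.18, against -0.38 for the other 56 members. IFT88 (ENSDARG00000027234), a gene of the IFT-B core and of polycystic kidney disease in mouse, stood at 2026, 2132, 2222 and 2197 in BkF, against 1637, 1586, 1749.8 and 1707 in Control. The groups did not overlap, and the ratio was 0.31, 0.43, 0.34 and 0.36 at the 4 times. The average was 0.36 ± 0.05 (adjusted p = 0.00406). IFT52, another core gene, had the steadiest ratio of the IFT genes, 0.26 ± 0.015, with 2637, 2531, 2471 and 2417 in BkF and 2231, 2092, 2054 and 2027 in Control. ift74, which binds tubulin cargo together with IFT81, rose by 0.34 ± 0.11, with ratios of 0.25, 0.27, 0.39 and 0.47, the highest of them at 96 hpf.

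Larger averages were seen in IFT22, a small GTPase gene of the train (0.54 ± 0.27), and IFT57 (0.40 ± 0.19). IFT20, which also acts at the Golgi, rose by 0.31 ± 0.20 and IFT56 by 0.24 ± 0.10. IFT172 (ENSDARG00000041870), the gene of the largest IFT-B subunit, stood at 6355, 6141, 5875 and 5556 in BkF, against 5842, 5230.5, 5130 and 5732 in Control. BkF was higher at the first 3 times and lower at 96 hpf, and the average of 0.13 ± 0.12 did not pass, but did without the 96 hpf samples (0.18). IFT140, the only IFT-A gene with such a symbol here, had 0.26 ± 0.19 (adjusted p = 0.051) and passed only without the 96 hpf samples among the 4 omissions (0.34). IFT46 (0.16 ± 0.13), IFT80 (0.11 ± 0.049), IFT81 (0.18 ± 0.22) and IFT70A (0.0028 ± 0.073) did not pass.

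At 96 hpf the ratio was lower than the mean of the 3 earlier ratios in 63 of 69 members, where 49.3% of all genes had this. In 50 members the 96 hpf ratio was the lowest of the 4, against 30.7% of all genes. The median of the difference was -0.32 for the members, with a range from -0.90 to 0.31, and 0.0045 for all genes. Gene by gene, 0 of 69 passed the test of this difference (limma, treatment by 96 hpf term, adjusted over all genes), against 1.01% of all genes (0.856% as lower and 0.155% as higher). At an unadjusted p under 0.05, 19 members were lower and 0 higher, or 27.5% of members lower against 8.73% of all genes. Without the 48 hpf samples 4 members passed as lower, and the share of all genes that did was then 2.46%. This test has few residual degrees of freedom, and the spread it uses is that of the ratios at 48, 60 and 72 hpf.

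DNAH5 came closest, at -0.64 ± 0.10 (SE, adjusted p = 0.0705). The largest differences were those of cfap144 (-0.90 ± 0.24), DNALI1 (-0.87 ± 0.21), CFAP73 (-0.78 ± 0.24), DNAH11 (-0.75 ± 0.18) and cfap221 (-0.73 ± 0.19), each with its SE. In 17 members the ratio was above 0 at 48, 60 and 72 hpf and below 0 at 96 hpf, where 6.1% of all genes had this pattern. On rescaling each sample to a common total, which moved all genes toward BkF, 9 members had it. The share of all genes was not counted on that scale. At the other end the highest differences were those of DNAH3 (0.31 ± 0.24), ift74 (0.17 ± 0.13) and CFAP97 (0.17 ± 0.16). RSPH4A (-0.035 ± 0.19), IFT88 (0.0042 ± 0.11) and IFT52 (-0.0074 ± 0.10) had nearly the same ratio at 96 hpf as before. The lowest ratios at 96 hpf were those of TEKT3 (-0.99), cfap92 (-0.64), dnah9l (-0.57), DNAL1 (-0.40) and cfap221 (-0.27). The highest were those of RSPH4A (0.56), DNAH2 (0.50), DNAI1 (0.50), DNAH6 (0.50) and cfap251 (0.47).

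**Figure D3:**
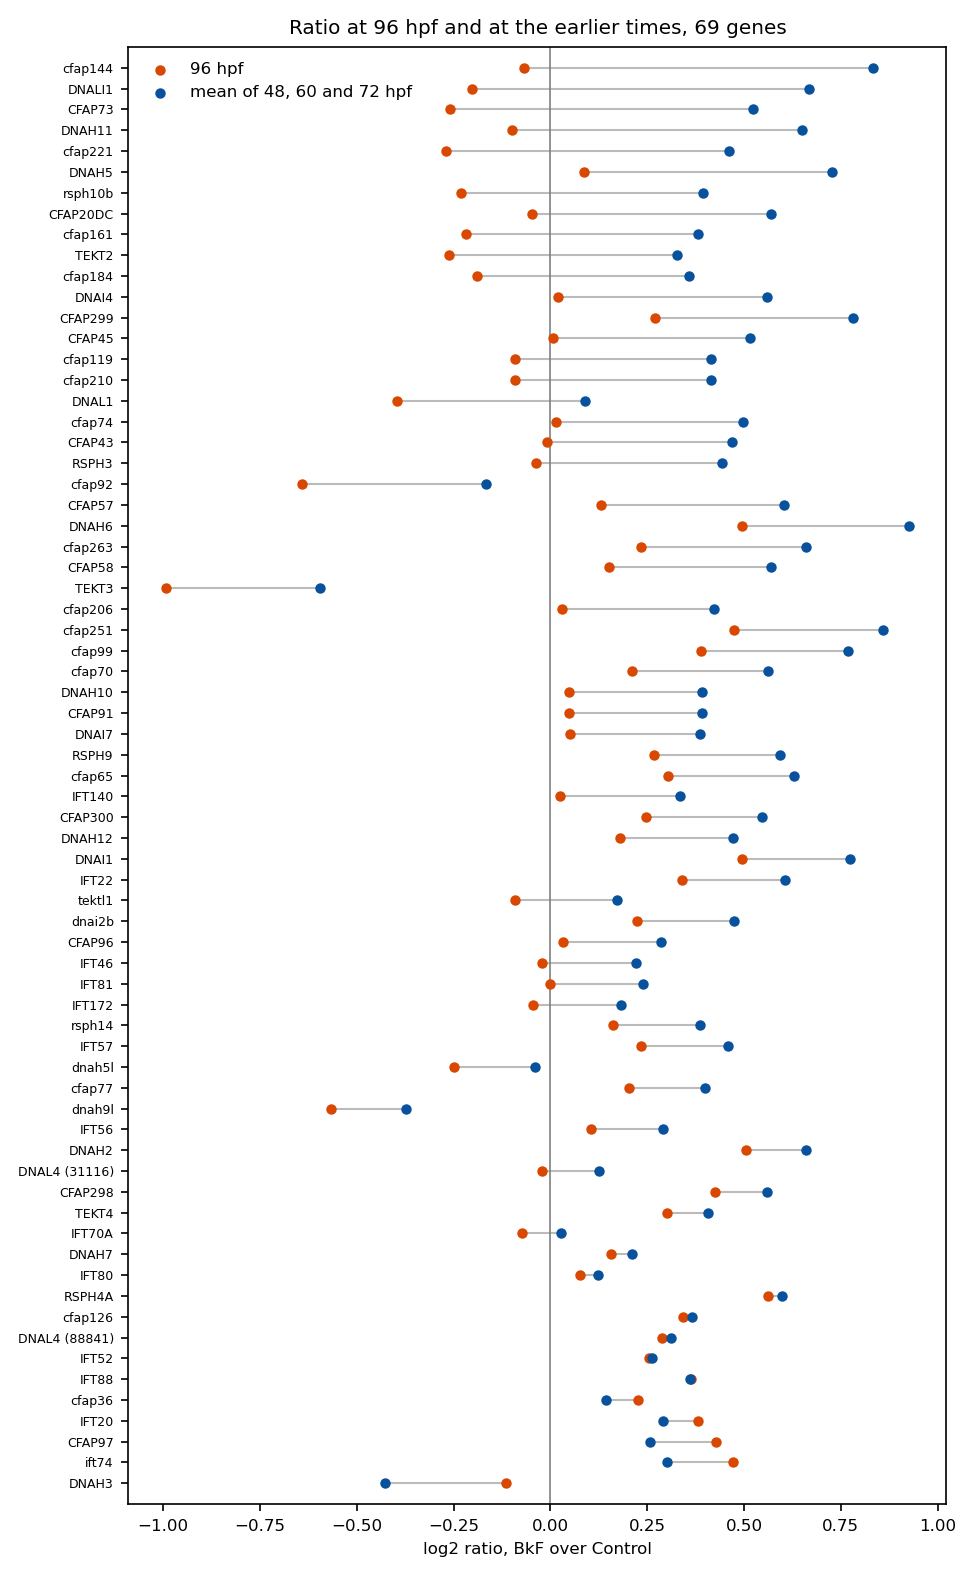
For each of the 69 genes (rows) an orange point gives the log2 ratio of BkF to Control at 96 hpf and a blue point the mean of the ratios at 48, 60 and 72 hpf, joined by a grey line. Rows are ordered by the difference, from cfap144 at the top to DNAH3 at the bottom, and in 63 rows the orange point lies to the left of the blue one.

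The next comparison is of the later with the earlier time within each treatment. Between 72 and 96 hpf 63 of 69 members were lower at the later time in BkF, and 58 of 69 were higher at the later time in Control. Of all genes 48.1% and 52.4% did so. Both held at once in 55 members, against 28.0% of all genes. The median log2 change over this interval was -0.22 in BkF and 0.17 in Control, and for all genes 0.011 in BkF and 0.0094 in Control. Each of these values compares single samples. For the cfap genes the medians were -0.28 and 0.20, and for the ift genes -0.11 and 0.12.

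**Figure D4:**
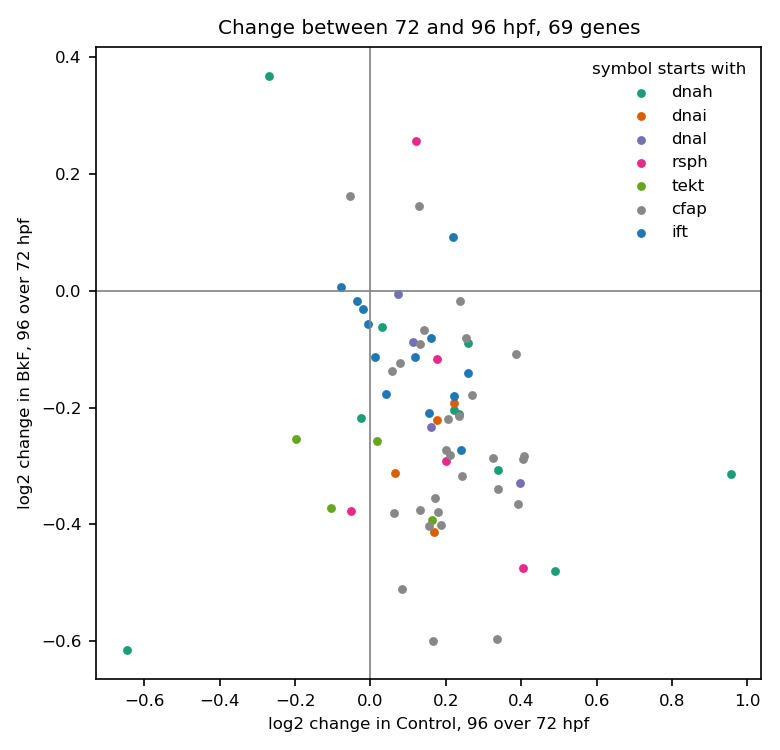
The log2 change between 72 and 96 hpf in BkF (vertical axis) is plotted against that in Control (horizontal axis) for the 69 genes, coloured by the start of the symbol. Most points, 55 of 69, lie at the lower right, higher at 96 hpf in Control and lower at 96 hpf in BkF.

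Earlier in development most members had lower values at the later time in both treatments. From 48 to 72 hpf 61 of 69 were lower at the later time in BkF and 63 in Control, where 50.7% and 50.5% of all genes were. The median log2 change over this interval was -0.26 in BkF and -0.51 in Control. A decline to 72 hpf followed by a rise to 96 hpf was seen in Control in 56 members, against 35.8% of all genes. A straight slope with time, fitted over both treatments, passed in 0 members (limma, adjusted), and in 0.00456% of all genes as higher and 0.0% as lower. At an unadjusted p under 0.05 it was falling in 33 members and rising in 1, together 34 of 69 against 29.2% of all genes. Without the 96 hpf samples 29 members fell with time and 1 rose (adjusted), against 8.47% and 9.45% of all genes.

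Other genes of the cilium, matched from lists of known components, were read in the same way. Over the 4 times 16.5% of all genes tested were higher and 17.4% lower, the shares to set beside each list count below. Of 13 genes of dynein arm assembly, which fold and load the arms in the cytoplasm, 5 were higher and 0 lower, with median log2 ratios at 48, 60, 72 and 96 hpf of 0.27, 0.56, 0.60 and 0.13. The chaperone cofactor gene ZMYND10 rose by 0.74 ± 0.32 and DAW1, which aids import of outer arms, by 0.73 ± 0.30. Of 9 genes of nexin links and docking complexes 4 were higher and 0 lower (0.41, 0.62, 0.58 and -0.091), led by the outer arm docking gene ODAD4 (0.61 ± 0.30) and the nexin link gene DRC3 (0.58 ± 0.12). The molecular ruler genes of that list, ccdc39 and ccdc40, were not matched. Of 25 genes of the central pair and other axoneme proteins 10 were higher and 1 lower (0.24, 0.40, 0.45 and -0.011). efcab2 rose by 0.79 ± 0.26, and odf3l2a was lower (-0.98 ± 0.36), with 27.5, 62.8, 92.4 and 107 in BkF and 43.8, 148, 241 and 174 in Control. Like TEKT3, odf3l2a was low at 48 hpf and higher later.

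Lists of genes shared with primary cilia had medians at 60 and 72 hpf below those of the members. Of 7 genes of IFT and its partners with symbols of another form 2 were higher and 0 lower, with medians of 0.15, 0.23, 0.17 and -0.034. These were hspb11 (0.58 ± 0.17) and tulp3 (0.27 ± 0.10), which is not itself a subunit of the trains. Of 14 motor genes of IFT 6 were higher and 1 lower (0.11, 0.24, 0.31 and 0.11). KIF3C (ENSDARG00000017162) rose by 0.64 ± 0.32, and DYNLL2 (ENSDARG00000005172), a light chain gene shared with other dyneins, was lower (-0.52 ± 0.15). The list of the BBSome, which carries membrane proteins through the cilium, also holds ARL6, bbs10, bbs12 and MKKS, which do not encode its subunits. Of the 11 listed genes 6 were higher and 0 lower (0.022, 0.33, 0.38 and 0.22), led by BBS9 (0.53 ± 0.17) and BBS5 (0.41 ± 0.23). Of 27 transition zone and basal body genes 5 were higher and 0 lower (0.084, 0.13, 0.21 and 0.16), with TMEM107 (ENSDARG00000088398) at 0.44 ± 0.039 and CBY1 at 0.43 ± 0.23. The share higher in that list was close to that of all genes. Of 16 genes of the primary cilium membrane and of tubulin modification 4 were higher and 0 lower (0.12, 0.19, 0.11 and 0.098). Among them were agbl2, which encodes a tubulin carboxypeptidase, at 0.56 ± 0.32, and again tulp3, which stands in both lists. arl13a had 0.37 ± 0.14 and did not pass. At 96 hpf the medians of these lists lay above the members' 0.049, except that of IFT and its partners (-0.034).

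Of 14 transcription factor genes of motile ciliogenesis 2 were higher and 4 lower, with medians of 0.28, 0.22, 0.082 and -0.30. The share higher was close to that of all genes, and the share lower, 4 of 14, lay above the 17.4% of all genes. foxj1b, a forkhead gene that switches on the motile cilium program, rose by 0.26 ± 0.083, with 3128, 3119.9, 2829 and 2868 in BkF and 2755, 2445, 2455 and 2298 in Control. RFX2, which works beside it, stood at 6133, 5361, 4417 and 3767 in BkF, against 5094, 4663, 4103 and 4585 in Control, and did not pass (0.073 ± 0.25). gmnc, which starts multiciliated cell fate, had ratios of 0.47, 1.14, 1.34 and -0.022 (0.73 ± 0.62) and did not pass. The highest average of the list, 1.30, belonged to a gene not named here. MYB (-1.49 ± 0.47) and TP73 (-1.36 ± 0.50), listed as factors of multiciliated cells, were lower. In bulk trunk tissue the cells that express these 2 genes cannot be told, so their values are not a measure of multiciliated cells. foxj1a was not analysed here.

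**Figure D5:**
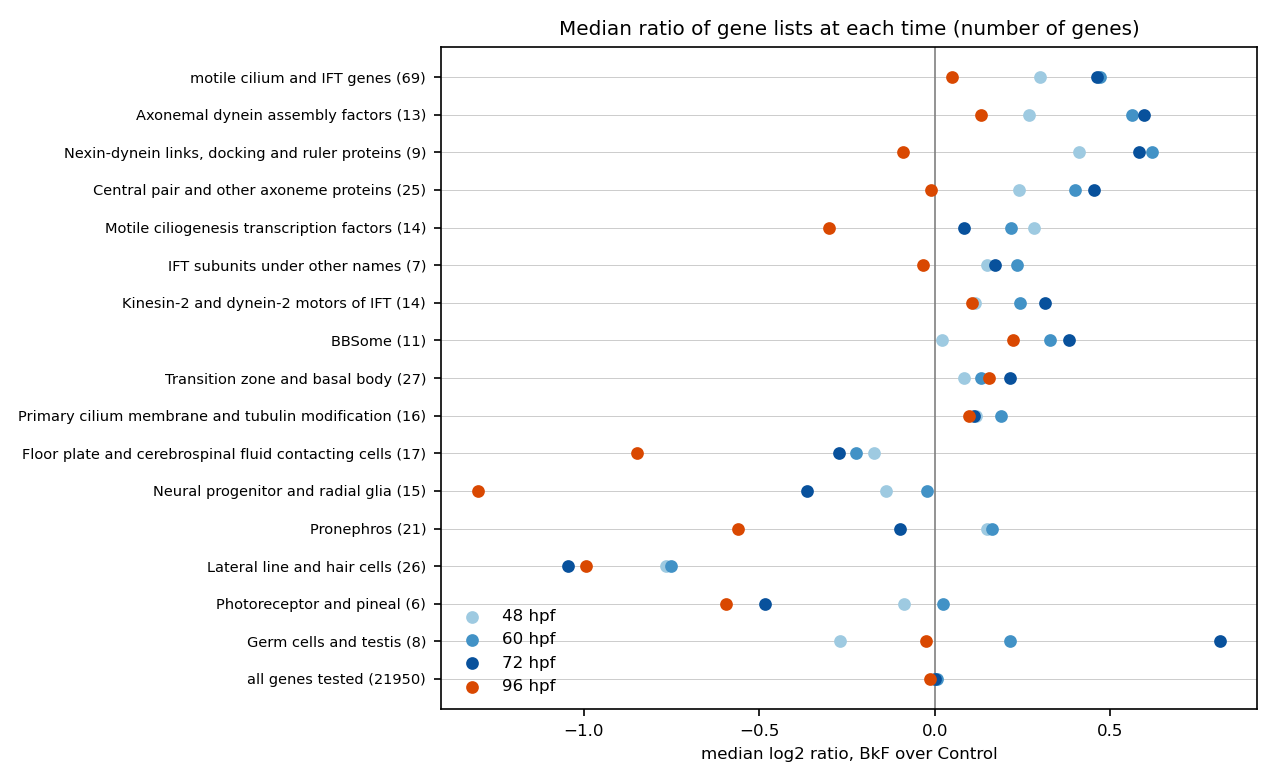
Median log2 ratios of BkF to Control (horizontal axis) at 48, 60, 72 and 96 hpf are plotted for the 69 genes, for 15 lists of other cilium genes and cell type markers with the number of genes in brackets, and for all genes tested. The lists of axoneme components lie right of 0 at the earlier times, that of neural progenitors lies farthest left at 96 hpf, and those of hair cells and the floor plate lie left of 0 at all 4 times.

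Markers of cells that bear motile cilia or kinocilia were read beside these results. For the marker lists too, the shares among all genes tested were 16.5% higher and 17.4% lower. Of 26 lateral line and hair cell genes 2 were higher and 17 lower, with medians of -0.76, -0.75, -1.05 and -0.99. Their summed level was 15889.7, 39609, 52048 and 48809 in BkF, against 20854, 73382, 117873 and 106176 in Control, low at 48 hpf and high from 60 hpf on. USH1C, which encodes the scaffold protein harmonin, rose by 3.06 ± 0.49, and LOXHD1 (ENSDARG00000094738) was lower (-1.63 ± 0.30). The calcium binding gene pvalb8 stood at 775, 7483, 16053 and 19754 in BkF and 1586, 21528, 54949 and 45381 in Control. Both pvalb8 and the summed level, of which pvalb8 was a large part, were lowest at 48 hpf and lower in BkF at every time. TEKT3 was also lowest at 48 hpf, at 16 in BkF and 17.8 in Control, low and nearly equal values. From 60 hpf on it was lower in BkF. Most members were higher in BkF, and the part of hair cells in any of these values was not tested.

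Of 17 floor plate and spinal cord fluid-contacting genes 1 was higher and 6 lower, and the medians were -0.17, -0.22, -0.27 and -0.85. Their summed level was 166760, 197347, 130242 and 69124 in BkF, against 192830, 220500, 169819 and 185627 in Control. A sum follows the genes with the highest counts. This list includes both entries of COL2A1, a collagen gene also expressed in cartilage and notochord, and their share of the sum was not counted. urp1, a urotensin-related peptide gene of fluid-contacting neurons, was higher, with 43.2, 114, 161 and 121 in BkF and 17.7, 51.7, 51.6 and 68.5 in Control, and SHH (ENSDARG00000038867) was lower (-0.95 ± 0.63). Of 15 neural progenitor and radial glia genes 1 was higher and 2 lower, with medians of -0.14, -0.022, -0.36 and -1.30 and a summed level of 23205, 23929, 18053 and 11996 in BkF, against 23282, 25543, 20666 and 21325 in Control. The share lower among these genes was not above that of all genes. SOX2 was lower (-0.82 ± 0.47), and her4.1 (-0.96 ± 0.87) and DBX1 (ENSDARG00000086393, -0.83 ± 1.49) did not pass. The lower values of both lists at 96 hpf went along with the lower ratio of the members at that time, and their part in it was not tested.

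The pronephros list had 4 of 21 higher and 3 lower, with medians of 0.15, 0.16, -0.098 and -0.56 and a summed level of 33222, 34629.9, 33888 and 35907 in BkF, against 25564, 27504, 27213 and 28337 in Control. Both shares were close to those of all genes. At 72 and 96 hpf the sum was higher in BkF while the median ratio was below 0. STC1 (ENSDARG00000003303) rose by 3.34 ± 1.10 and SLC13A3 was lower (-2.05 ± 1.12). CDH17, a cadherin gene of the tubules, had low values throughout, at 14.4, 3.96, 12.1 and 8.29 in BkF and 28.8, 13.4, 10.3 and 10.6 in Control. In this list 5 of 26 matched identifiers were under the minimum mean. Of 6 photoreceptor and pineal genes, which the dissection should leave out, 0 were higher and 0 lower (limma, adjusted), with 1 at an unadjusted p under 0.05 and medians of -0.089, 0.024, -0.48 and -0.60; the largest changes were those of aanat2 (-0.63 ± 0.60) and GNAT2 (0.42 ± 0.67). Of 8 germ cell genes 2 were higher and 0 lower, tdrd7a (2.08 ± 0.81) and gra (0.73 ± 0.23), and the medians were -0.27, 0.22, 0.81 and -0.023.

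The normalized counts summed to 76456319 to 78634021 in the BkF samples and to 87750209 to 89533865 in the Control samples. Setting all 8 totals equal shifted the median over all genes by 0.18 (log2) in favour of BkF. The members were then higher in 58 and lower in 2 cases, with 36.2% of all genes higher and 9.8% lower. Such rescaling moves all genes of a sample by nearly the same log2 amount. The median ratio of the members less that of all genes could therefore hardly change. It was 0.30, 0.47, 0.46 and 0.062 at 48, 60, 72 and 96 hpf as deposited, and 0.30, 0.47, 0.46 and 0.063 after rescaling.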

How the data were processed

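RNA of distal trunk tissue was sequenced from stranded libraries, per the labels' protocols, in 8 conditions (BkF or Control at 48, 60, 72 and 96 hpf). Per the submitters' processing notes the build was Zv9 and the tools included FastQC, Trimmomatic, Salmon and DESeq2, whose versions are not given there. As deposited, the signal values are normalized counts that the authors averaged over 4 biological replicates, so replicate spread and read depth are unknown and no counting interval is given. The 8 single-sample files held the same values as the series table.

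Symbols came from a table of gene identifiers, in which 18028 of 24345 identifiers had one. Genes with a mean of 10 or more (21950) went into limma 3.58.1 (R 4.3.3) as log2(value + 1), which understates changes of low genes, with an intensity trend; p-values were two-sided, Benjamini-Hochberg adjusted, and passed under 0.05. The fits were treatment with time as a factor, the same with a term for BkF at 96 hpf, and a slope with hpf. Each fit was also run on simulated data with independent noise and 200 changed genes. The outcome is not given here, and no result above rests on it. Ratios at single times carry no test, and a count at 2-fold takes a log2 ratio of 1 or more.

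Named were the 10 highest and 10 lowest members past the threshold, the 5 highest and lowest at 96 hpf, landmark genes and the 2 largest changes of each of 15 lists, with some left out for length and others named after their values were seen. List genes matched by symbol, or by the capitals symbol without its paralog letter, and members were taken out of the lists. Members and lists were chosen with earlier results of these data known. A planned promoter motif count was not run. Alternatives were a pseudocount of 10, other filters (none, or a mean of 50 or more), the same total in every sample, quantile normalization, a robust prior, no intensity trend, no time block, Control alone for the slope, and leaving out each time. Figures were drawn with matplotlib 3.10.9.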

Additional observations from a re-analysis of the deposited data

Results flagged for a closer look

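The ratio of BkF to Control at 96 hpf differed from that at the earlier times (limma, adjusted over all genes) in 7 genes of the marker lists and in 0 of the 69 cilium genes. They were 5 of the 15 neural progenitor genes and 2 of the 17 floor plate genes, all lower at 96 hpf. Among all genes tested 0.856% passed as lower and 0.155% as higher. The DBX1 entries ENSDARG00000086393 and ENSDARG00000001859, homeobox genes of spinal cord progenitors, differed by -2.93 ± 0.31 and -1.69 ± 0.19 (log2, SE). For COL2A1 (ENSDARG00000069093), a collagen gene listed with the floor plate and also expressed in cartilage and notochord, the difference was -1.73 ± 0.18, and for the Hedgehog ligand gene SHH (ENSDARG00000068567) it was -1.07 ± 0.098. nes, which encodes the progenitor filament nestin, differed by -1.40 ± 0.18, the glial filament gene GFAP by -0.85 ± 0.11 and sox19a by -0.77 ± 0.10. GFAP stood at 6783, 10435, 7946 and 4319 in BkF, against 7676, 11930.3, 9974 and 9177 in Control, at 48, 60, 72 and 96 hpf. The calls of all 7 genes ended without the 60 hpf samples (limma, adjusted p 0.144 to 0.28) and without the intensity trend (0.132 to 0.189). In those fits 3 and 1 of all 21950 genes passed as lower. The call of sox19a also ended with no filter on low values (0.0507). The difference was below 0 for all 7 genes in each of the 10 alternatives run.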

How the results depend on the processing

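Of the 69 genes, 36 were higher and 2 lower in BkF over the 4 times. Higher were 58 with all sample totals set equal (36.2% of all genes) and 16 without the time block (12.6%). Without the 60 hpf samples 9 were (7.58%), and without the 72 hpf samples 11 (8.37%). The count lower was 1 in each of these last 3 fits. In the other 8 alternatives the number higher ran from 24 (no intensity trend, 12.8% of all genes) to 46 (without the 96 hpf samples, 15.2%). The 36 genes were all among the 58 after rescaling, and 8 of them were among the 9 without the 60 hpf samples. The count of members with a lower ratio at 96 hpf was 0 and became 4 without the 48 hpf samples (2.46% of all genes). The slope counts of 0 became 1 rising and 29 falling without the 96 hpf samples and 1 falling without the 72 hpf samples. Rescaling set the median ratio at 48, 60, 72 and 96 hpf to 0.48, 0.66, 0.665 and 0.21, against 0.30, 0.47, 0.462 and 0.049 as deposited, and the number 2-fold or more higher became 8 at 60 hpf (from 1) and 10 at 72 hpf (from 3). It moved all genes toward BkF as well, and their share past 2-fold was not counted on that scale. The causes were not tested. Each fit that leaves out a time also has fewer samples. None of the named members reversed in a called fit. No paired analysis by replicate was possible with these values, because each is the authors' mean of 4 biological replicates. Without replicate values, neither the error of a ratio at 1 time nor the depth behind it could be given.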
